A study of Mus musculus with 6 samples.

Results

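Neuronal high-voltage-activated calcium channels are described here through 9 genes that make up their pore-forming, alpha2delta and beta subunits: Cacna2d1, Cacna2d2, Cacna2d3, Cacna1a, Cacna1b, Cacna1c, Cacna1d, Cacna1e and Cacnb4. The genes were chosen by name, as the channel types and drug targets that bear on pain, with earlier results of these data known. Each was found as 1 row among the 26554 features of every library. The libraries were made from poly(A) RNA of VPL/VPM, the pair of ventral posterior nuclei through which the thalamus passes touch and pain signals to the cortex, in C57 mice of WT genotype. Of the 6 libraries, 3 are from mice that received 0.01 U of type IV collagenase in 10 nL into the right VPL/VPM, and 3 from mice that received 10 nL of saline, all at day 14. Collagenase degrades the basement membrane of vessels and causes a local bleed, which the study uses as a model of central post-stroke pain. The labels give no age and do not say whether a library is 1 mouse or a pool, so the p-values cover only the spread from library to library, which may be technical. Total counts ran from 33603076 to 44815451, and each of the 9 genes had between 1139 and 12972 counts in every library.

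High-voltage-activated calcium channels open on strong depolarisation and turn the action potential into calcium entry. The alpha1 subunit forms the pore and sets the channel type. The beta subunit in the cytoplasm and the alpha2delta subunit on the outer face carry the pore to the membrane and tune its opening. Cav2 channels at nerve terminals trigger transmitter release, and Cav1 channels on cell bodies and dendrites link activity to gene expression. Gabapentin and pregabalin, drugs used against neuropathic and central pain, bind the alpha2delta proteins encoded by Cacna2d1 and Cacna2d2 and not the one encoded by Cacna2d3. Thalamic relay neurons use these channels together with low-threshold T-type channels, which are not among the 9 genes.

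A run of arginines just ahead of the von Willebrand factor A domain of alpha2delta-1 and alpha2delta-2 is known to be needed for gabapentin binding. The coding stretch around it is shown because it differs between the drug-binding and the non-binding members. Whether that difference accounts for drug binding was not tested. Each line gives 39 coding bases, 5′ to 3′ on the coding strand, from GENCODE M21 transcripts on GRCm38, with the 3 codons at the position of the run in capitals.
Cacna2d1: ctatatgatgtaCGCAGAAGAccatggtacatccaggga
Cacna2d2: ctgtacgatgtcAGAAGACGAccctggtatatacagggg
Cacna2d3: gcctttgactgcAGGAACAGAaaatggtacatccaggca
Cacna2d4: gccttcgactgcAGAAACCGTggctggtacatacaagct
All 3 capital codons are arginine codons in Cacna2d1 (codons 239 to 241) and Cacna2d2 (codons 280 to 282). In Cacna2d3 (codons 242 to 244) and in its close relative Cacna2d4 (codons 284 to 286) only 2 of the 3 are. The middle codon is the one that differs, and the outer ones remain arginine codons. Over the 39 bases Cacna2d1 matched Cacna2d2 at 29 and Cacna2d3 at 24 positions, and Cacna2d3 matched Cacna2d4 at 29. The stretch crosses an exon junction in each gene. It runs from exon 8 to exon 9 of Cacna2d1 (chr5:16264302-16266699, plus strand) and of Cacna2d2 (chr9:107512335-107513066, plus strand). In Cacna2d3 (chr14:29347019-29347147, minus strand) and Cacna2d4 (chr6:119267842-119268208, plus strand) it runs from exon 7 to exon 8.

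The tissue label was checked with markers. The thalamic relay markers were present in every library, with summed levels of 2718 to 4078 CPM (counts scaled by TMM-adjusted library size) after saline and 2685 to 3144 CPM after collagenase for 10 genes, and none of them was at 0. Markers of neighbouring regions set several libraries apart. The sum of 8 striatal markers was 1126 CPM in saline replicate 3, 2.89 times the highest of the other 5 libraries (179.8 to 389.8 CPM). The sum of 8 habenular markers was 25.7 and 32.2 CPM in saline replicates 1 and 2, 182.8 CPM in saline replicate 3, and 146.6, 70.6 and 214.8 CPM after collagenase. The sum of 10 hippocampal and cortical markers was 253.7, 215.4 and 283.3 CPM in saline replicates 1, 2 and 3. After collagenase it was 233.1, 187.2 and 194.7 CPM, with overlap. Neurod6, 1 gene of that list, measured 23.0 and 39.8 CPM in saline replicates 1 and 2 and 0.176 to 3.65 CPM in the other 4 libraries. The list did not follow Neurod6, as its sum was highest in saline replicate 3, where Neurod6 was lowest. The 10 microglial markers summed to 314.9 to 336.6 CPM after saline and 637.1 to 962.9 CPM after collagenase, without overlap. The 12 pan-neuronal markers summed to 7534 to 9278 CPM after saline and 6412 to 7659 CPM after collagenase, with overlap. In tissue RNA, fewer neurons and less RNA per neuron cannot be told apart.

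No channel gene passed the test between groups. The edgeR quasi-likelihood test with Benjamini-Hochberg adjustment called 0 of the 9 genes at an adjusted p under 0.05, where 416 of 17240 tested features did (2.41%; 0.290% lower and 2.12% higher). At an unadjusted p under 0.05 the edgeR count was 2, Cacna2d1 and Cacnb4, both lower after collagenase, against 4.60% of all features in that direction. DESeq2 called 1 gene, Cacna2d1, as lower, against 0.915% of the features to which it gave an adjusted p in that direction and 4.00% in either. The log2 fold change, collagenase over saline, was negative for 6 and positive for 3 of the 9 genes and ran from -0.36 to 0.25. Over all tested features 53.4% were negative. The median of the 9 was -0.25, beside -0.02 over all tested features. The groups did not overlap in 2 of the 9 genes, both lower after collagenase, where 7.50% of all features were lower without overlap, 10.1% were higher and 17.6% were either.

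**Figure D1:**
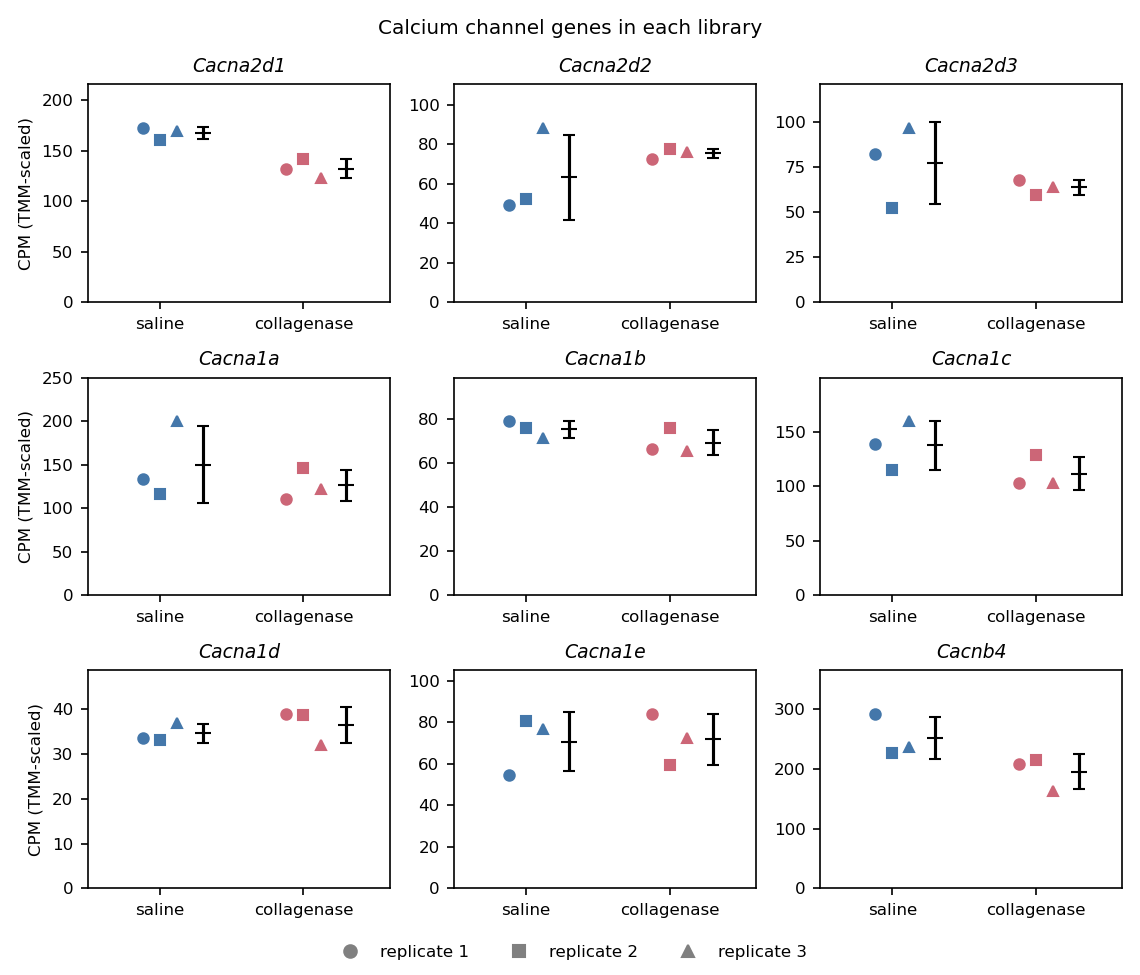
Level of each calcium channel gene in each library, in TMM-scaled CPM on a linear axis from 0. Points are libraries, with the shape giving the replicate number, and the bar beside each group is the mean with its SD over 3 libraries. Cacna2d1 and Cacnb4 are lower in every collagenase library than in every saline library, and the other 7 genes overlap.

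Cacna2d1 encodes alpha2delta-1, the main gabapentinoid receptor, and lies at chr5:15934691-16374511 on the plus strand (GRCm38; ENSMUSG00000040118). After saline it measured 172.5, 160.6 and 169.7 CPM (replicates 1, 2 and 3, the order used throughout), and after collagenase 131.7, 141.7 and 123.4 CPM. Every collagenase library lay below every saline library, with group means of 167.6 ± 6.22 and 132.3 ± 9.18 CPM (SD, n = 3 per group). The log2 fold change was -0.34 (standard error, SE, 0.10; 95% interval -0.56 to -0.12), and the edgeR adjusted p was 0.152. The DESeq2 adjusted p was 0.0446, the lowest of the 14 alternative fits, and the highest was 0.501, without saline replicate 1. The groups did not overlap with FPKM values or with library size as the only scaling either. As a percent of the summed count of the 12 pan-neuronal markers in its own library, Cacna2d1 measured 2.06, 2.13 and 1.83 after saline and 2.05, 1.92 and 1.61 after collagenase. On that scale, which was added after the values were seen, the groups overlapped. Snap25 and Syt1 weigh most in the sum, with the highest mean levels of the 12 markers (2311 and 1413 CPM). They also had the most negative log2 fold changes of the 12 (-0.40 and -0.31). How far the overlap depends on these markers was not tested.

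Cacna2d2 encodes alpha2delta-2, the other gabapentinoid-binding subunit (chr9:107399612-107529343, plus strand; ENSMUSG00000010066). It measured 49.5, 52.5 and 88.3 CPM after saline and 72.7, 77.6 and 76.1 CPM after collagenase. The collagenase libraries lay close together, between saline replicates 1 and 2 below them and saline replicate 3 above them. This gave a log2 fold change of 0.25 (SE 0.21, 95% interval -0.23 to 0.73, edgeR adjusted p 0.73). Without saline replicate 3, the library high in striatal markers, the log2 fold change was 0.56 with an edgeR adjusted p of 0.0140, in a fit that called 5.21% of features, 2.86% as higher. The habenular markers had the same low libraries as Cacna2d2, saline replicates 1 and 2, and without saline replicate 3 their sums did not overlap between groups (25.7 to 32.2 and 70.6 to 214.8 CPM). Among the collagenase libraries, replicate 2 had the highest Cacna2d2 level and the lowest habenular sum. The part of the striatal and habenular markers in the Cacna2d2 values was not tested. As a percent of the pan-neuronal sum, Cacna2d2 measured 0.591, 0.697 and 0.952 after saline and 1.13, 1.05 and 0.993 after collagenase. With this scaling, also added later, every collagenase library lay above every saline library. Cacna2d2 was 1 of 9 genes without overlap there, where 25.2% of all tested features did not overlap (24.4% higher and 0.800% lower), so the count was not above that share. How far the Cacna2d2 result depends on Snap25 and Syt1, which weigh most in the sum, was not tested.

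Cacna2d3 encodes alpha2delta-3, which lacks the full arginine run shown above (chr14:28904943-29721864, minus strand; ENSMUSG00000021991). It measured 82.6, 52.1 and 96.7 CPM after saline and 68.0, 59.7 and 63.9 CPM after collagenase. The saline libraries spread widely around the collagenase libraries. Its log2 fold change was -0.27 (SE 0.20, 95% interval -0.74 to 0.19, edgeR adjusted p 0.689). It was -0.49 without saline replicate 2 and -0.08 without saline replicate 3, and neither fit called it.

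The Cav2 pore subunits drive transmitter release. Cacna1a encodes the P/Q-type pore (chr8:84388440-84640246, plus strand; ENSMUSG00000034656) and measured 133.2, 116.6 and 200.0 CPM after saline and 110.3, 145.9 and 122.4 CPM after collagenase. Saline replicate 3 was the highest of the 6 and the groups overlapped. The log2 fold change was -0.25 (95% interval -0.72 to 0.22, edgeR adjusted p 0.725), and without saline replicate 3 it was 0.01. Cacna1b encodes the N-type pore, the target of ziconotide (chr2:24603887-24763152, minus strand; ENSMUSG00000004113). It measured 79.2, 75.8 and 71.4 CPM after saline and 66.6, 75.8 and 65.4 CPM after collagenase. The groups overlapped, and the log2 fold change was -0.12 (SE 0.10, 95% interval -0.35 to 0.11, edgeR adjusted p 0.721). With FPKM in limma the value was 0.04. Cacna1e encodes the R-type pore (chr1:154390731-154884501, minus strand; ENSMUSG00000004110). It measured 54.3, 80.5 and 76.8 CPM after saline and 83.9, 59.4 and 72.3 CPM after collagenase, with a log2 fold change of 0.03 (95% interval -0.38 to 0.43, edgeR adjusted p 0.977). Leaving out saline replicate 1 or collagenase replicate 1 turned the Cacna1e value negative (-0.13 and -0.10).

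The Cav1 pores form the L-type channels that dihydropyridines block. Cacna1c, the Cav1.2 pore (chr6:118587240-119196418, minus strand; ENSMUSG00000051331), measured 138.5, 115.1 and 160.0 CPM after saline and 103.1, 129.0 and 103.0 CPM after collagenase. Only collagenase replicate 2 lay above the lowest saline library. For Cacna1c the log2 fold change was -0.30 (SE 0.15, 95% interval -0.64 to 0.03, edgeR adjusted p 0.475). Cacna1d, the Cav1.3 pore, which opens at less depolarised potentials (chr14:30039939-30491455, minus strand; ENSMUSG00000015968), measured 33.6, 33.1 and 36.9 CPM after saline and 38.9, 38.7 and 31.9 CPM after collagenase. Its collagenase libraries included both the highest and the lowest of the 6 values. For Cacna1d it was 0.08 (SE 0.11, 95% interval -0.18 to 0.34, edgeR adjusted p 0.866). The annotated gene Chdh lies on the opposite strand over 589 exonic bases of Cacna1d (4.67% of its exonic bases), and the library protocol names no step that marks strand, so reads there cannot be assigned with certainty.

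Cacnb4 encodes the beta4 subunit, which binds the linker between the first and the second repeat of the pore and is mutated in the epileptic lethargic mouse (chr2:52428320-52676831, minus strand; ENSMUSG00000017412). It measured 292.3, 227.8 and 236.7 CPM after saline and 209.3, 215.5 and 163.1 CPM after collagenase. Every collagenase library lay below every saline library on this scale, by a small margin between collagenase replicate 2 and saline replicate 2. With FPKM or with library size as the only scaling the groups overlapped. The log2 fold change was -0.36 (SE 0.15, 95% interval -0.70 to -0.03), with an edgeR adjusted p of 0.357 and a DESeq2 adjusted p of 0.268. Another annotated gene covers 16.0% of the exonic bases of Cacnb4 from the opposite strand, again with no strand information. Unlike Chdh, it is not among the features, so its level is not known. Genes that are also absent cover 3.81% of the exonic bases of Cacna1a and 1.03% of those of Cacna2d2 in the same way.

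**Figure D2:**
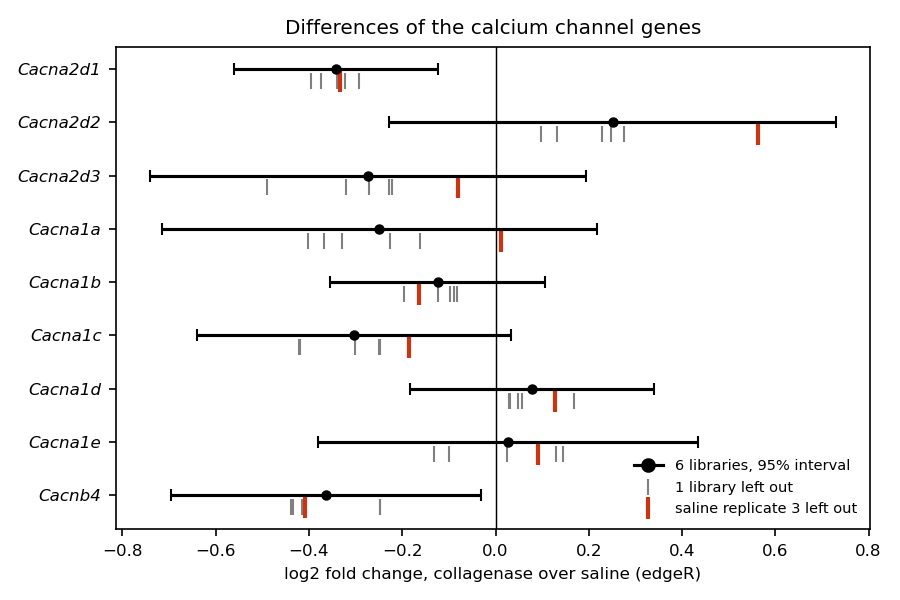
Log2 fold change of each calcium channel gene, collagenase over saline, from edgeR. Black points with bars are the values from all 6 libraries with their 95% intervals, grey ticks the values with 1 library left out, and red ticks those without saline replicate 3. The Cacna2d1 and Cacnb4 intervals lie below 0, though neither gene passed after adjustment, and the Cacna2d2 value moves from 0.25 to 0.56 without saline replicate 3.

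Levels between genes were compared per transcript length, in the deposited FPKM values over all 6 libraries. The order from high to low was Cacnb4 (26.2 ± 4.65 FPKM), Cacna2d1 (20.9 ± 2.67), Cacna2d3 (18.0 ± 3.41), Cacna1a (17.1 ± 2.97), Cacna2d2 (11.5 ± 2.38), Cacna1c (9.12 ± 1.20), Cacna1b (7.67 ± 0.709), Cacna1e (4.81 ± 1.15) and Cacna1d (3.81 ± 0.504), each as mean ± SD with n = 6. The P/Q-type pore gene was thus the highest of the 5 alpha1 genes and the Cav1.3 pore gene the lowest. Of the 8 pairs of neighbours, 7 had ranges that overlapped, and Cacna1a and Cacna2d2 did not. Within single libraries Cacnb4 was above Cacna2d1, and Cacna1b above Cacna1e, in 6 of 6. Cacna2d1 was above Cacna2d3, Cacna2d3 above Cacna1a and Cacna1e above Cacna1d in 4 of 6, so these neighbours had no stable order. The highest library exceeded the lowest 1.93-fold for Cacna1e and 1.24-fold for Cacna1b, the widest and narrowest FPKM ranges of the 9 genes. The ratio of count to FPKM differed by up to 1.16-fold between libraries for Cacna1e, 1.13-fold for Cacna1b and 1.12-fold for Cacna2d1, after division by each library's median ratio, against a median of 1.02-fold over tested features.

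**Figure D3:**
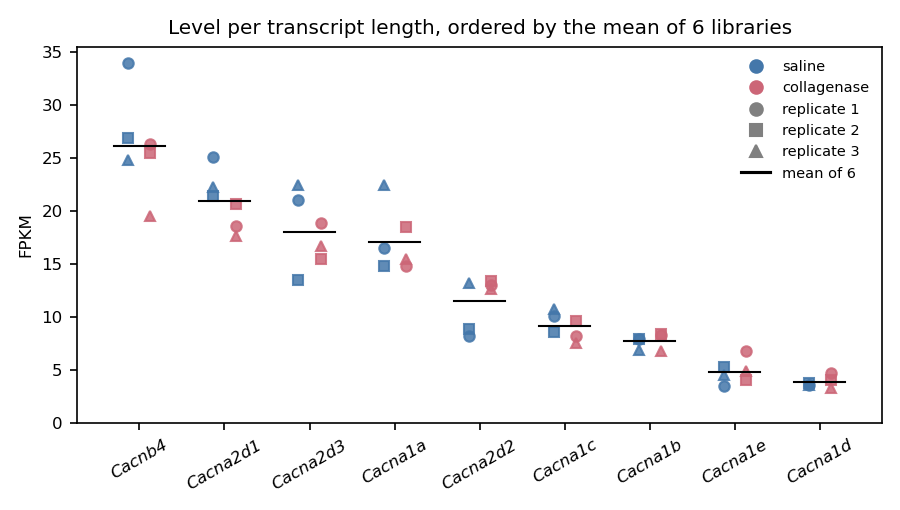
FPKM of the 9 calcium channel genes in each library on a linear axis, ordered by the mean of 6 libraries (black line). Blue points are saline and red points collagenase libraries, with the shape giving the replicate number. The gap between Cacna1a and Cacna2d2 is the only place in the order where neighbouring ranges do not meet.

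The alpha2delta genes were also set against each other as shares of the summed FPKM of Cacna2d1 to Cacna2d4, which does not depend on library scaling. Cacna2d2 made up 14.2%, 19.0% and 21.6% after saline and 24.4%, 25.4% and 25.4% after collagenase. Every collagenase library was above every saline library, with means of 18.3% ± 3.74 and 25.0% ± 0.595 (SD, n = 3 per group). The exact two-sided permutation test gave p = 0.1, the smallest that 3 against 3 libraries allow, and 0.692 after adjustment over the 15 shares tested, so the design cannot pass the threshold here. Saline replicates 1 and 2 had the lowest Cacna2d2 shares, the lowest habenular marker sums and the highest Neurod6 levels. The sum of the 10 hippocampal and cortical markers, Neurod6 among them, was instead highest in saline replicate 3 (283.3 CPM). The order of habenular sums and shares differed among the collagenase libraries. There, replicate 2 had the lowest habenular sum (70.6 CPM) and the highest Cacna2d2 share (25.41%). The part of these markers in the shares was not tested. Cacna2d1 made up 43.7%, 46.3% and 36.4% after saline and 34.8%, 39.3% and 35.3% after collagenase, with overlap (exact permutation p = 0.2). Cacna2d3 held 34.2% ± 4.39 and 32.7% ± 2.96, and Cacna2d4, the minor member, 5.38% ± 0.159 and 5.76% ± 0.228. The ratio of Cacna2d1 to Cacna2d2 in FPKM, chosen after the values were seen and not tested, was 3.07, 2.43 and 1.68 after saline and 1.43, 1.55 and 1.39 after collagenase. The share of Cacna1a among the alpha1 genes, 40.6% ± 4.86 and 38.5% ± 3.61, and that of Cacnb4 among the beta genes, 27.7% ± 5.83 and 22.1% ± 5.66, overlapped between groups.

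**Figure D4:**
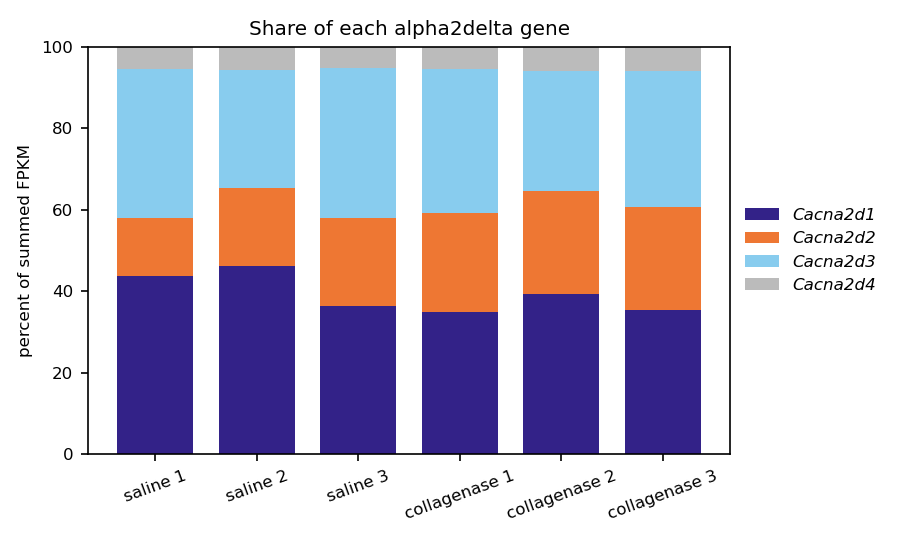
Share of each alpha2delta gene in the summed FPKM of the 4 genes, in percent, as stacked bars for each library. The Cacna2d2 part (orange) is 14.2% to 21.6% in saline and 24.4% to 25.4% in collagenase libraries, and the Cacna2d1 part (dark blue) overlaps between groups.

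Other genes of the pathway were read from the same fit in 4 lists with 60 genes, of which 58 were tested. These lists, too, were chosen with earlier results of the data known. In total 1 gene passed, higher after collagenase, and 57 did not pass. Over all tested features 2.41% passed, 2.12% as higher and 0.290% as lower, so the count was not above that share. The median log2 fold change of the tested pathway genes was -0.07, beside -0.02 over all tested features. Among the remaining channel subunits 0 of 6 tested genes passed in edgeR, with 0 at an unadjusted p under 0.05 and 0 in DESeq2. The beta genes Cacnb2 and Cacnb3 and the alpha2delta gene Cacna2d4 had the smallest p of that list, with log2 fold changes of -0.23, 0.21 and -0.10, and the 3 signs each turned in at least 1 alternative fit.

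Among 21 genes that regulate the channels 0 passed in edgeR, with 4 at an unadjusted p under 0.05 (2 higher and 2 lower, beside 7.44% and 4.60% of all features). DESeq2 called 1, Ahnak, against 4.00% of its features in either direction. Ahnak encodes a large scaffold that binds the beta subunit and is also expressed in vessels and connective tissue cells. It measured 19.0, 24.0 and 12.2 CPM after saline and 38.5, 31.8 and 31.1 CPM after collagenase (log2 fold change 0.88, SE 0.23, edgeR adjusted p 0.118, DESeq2 adjusted p 0.00599). Sums of the 7 fibroblast and meningeal markers (477.3 to 794.5 CPM after saline, 795.1 to 1542 CPM after collagenase) and of the 8 pericyte and smooth muscle markers (333.2 to 386.1 and 391.7 to 483.8 CPM) were also higher in every collagenase library, and their part in the Ahnak values was not tested. Rem2, a small GTPase that inhibits high-voltage-activated channels, measured 7.47 ± 2.33 and 4.11 ± 1.18 CPM (log2 fold change -0.86, edgeR adjusted p 0.243). Calm2, 1 of the 3 calmodulin genes, measured 1138 ± 25.7 and 925.1 ± 100.3 CPM (log2 fold change -0.30, edgeR adjusted p 0.342).

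Among 20 genes of the presynaptic active zone 0 passed in edgeR, and 6 had an unadjusted p under 0.05, all lower after collagenase (4.60% of all features). DESeq2 called 2, Erc2 and Nrxn3, both lower, against 0.915% of its features in that direction and 4.00% in either. Of the 20 log2 fold changes 16 were negative, where 53.4% of all tested features were. The median of the 20 was -0.19, beside -0.02 over all tested features. Erc2, a scaffold of the active zone, measured 80.9, 86.2 and 68.2 CPM after saline and 58.7, 48.9 and 52.4 CPM after collagenase, without overlap (log2 fold change -0.56, SE 0.12, edgeR adjusted p 0.0611, DESeq2 adjusted p 0.00369). Nrxn3, a presynaptic adhesion protein, had a log2 fold change of -0.50 (edgeR adjusted p 0.143, DESeq2 adjusted p 0.0298). Bsn, which encodes bassoon, a scaffold that helps place Cav2.1 channels, measured 230.3 ± 12.1 and 184.8 ± 16.7 CPM (log2 fold change -0.32, edgeR adjusted p 0.238). Beside these values, 11 of the 12 pan-neuronal markers had a negative log2 fold change, with a median of -0.16, and that list shares Snap25 and Syt1 with the active zone list. Of 11 reticular and GABAergic markers 9 had a negative log2 fold change, with a median of -0.66. In that list 6 were lower at an unadjusted p under 0.05, beside 4.60% of all features. Dlx1 passed as lower (edgeR adjusted p 0.0328) and Spp1, also a gene of activated microglia, as higher (edgeR adjusted p 0.0165). Over all features 0.290% passed as lower and 2.12% as higher. Ecel1, the other marker with a positive value, was higher without overlap (log2 fold change 0.79, edgeR adjusted p 0.0543, DESeq2 adjusted p 0.00149). Gad1, which makes the transmitter GABA, measured 582.2, 403.0 and 422.7 CPM after saline and 359.7, 320.6 and 212.0 CPM after collagenase. These CPM values did not overlap (edgeR adjusted p 0.241), but the FPKM values did (108.8 to 164.4 and 60.7 to 110.5). The sum of the 11 markers also overlapped (922.8 to 1253 CPM after saline, 718.4 to 1038 CPM after collagenase). The part of these markers in the active zone and channel gene values was not tested.

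The gene that passed was Thbs2, among 11 ligands, partners and drug carriers tied to alpha2delta proteins. It encodes thrombospondin-2, a secreted matrix protein; thrombospondins bind alpha2delta-1 and promote excitatory synapse formation, which gabapentin blocks. Thbs2 measured 7.53, 7.83 and 7.10 CPM after saline and 17.6, 12.3 and 15.1 CPM after collagenase, and the groups stood well apart. Thbs2 rose by a log2 fold change of 1.01 (SE 0.16, 95% interval 0.64 to 1.38, edgeR adjusted p 0.0193). The call ended without saline replicate 1 (edgeR adjusted p 0.110), without collagenase replicate 1 (0.0700) and without collagenase replicate 3 (0.0777), and with limma on log2(FPKM + 1) the adjusted p was 0.0506. The log2 fold change stayed between 0.87 and 1.13 with any library left out. Thbs2 is also expressed in fibroblasts and vessel walls, whose marker sums, given above, were higher in every collagenase library. The sum of 8 astrocyte markers was higher too (3663 to 4023 CPM after saline, 4464 to 4837 CPM after collagenase, without overlap). The part of all these markers in the Thbs2 values was not tested.

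Its relative Thbs1 measured 1.80, 4.89 and 1.79 CPM after saline and 7.81, 6.16 and 5.39 CPM after collagenase (edgeR adjusted p 0.247). Without saline replicate 2 the edgeR adjusted p was 0.0153, in a fit that called 348 of 17562 features. With any other library left out it was 0.227 to 0.679. Saline replicate 2 also had the highest fibroblast and meningeal sum after saline (794.5 CPM, beside 486.0 and 477.3 CPM). The part of these markers in the Thbs1 values was not tested. Thbs4 was low in all libraries (0.492 to 5.87 CPM), highest in saline replicate 3, and did not pass (edgeR adjusted p 0.316). Lrp1, an endocytic receptor reported to bind alpha2delta subunits, measured 335.8 ± 5.51 and 425.6 ± 32.7 CPM without overlap. Its log2 fold change was 0.34 (edgeR adjusted p 0.177, DESeq2 adjusted p 0.0404). The part of the microglial, astrocyte and fibroblast markers, whose sums were higher after collagenase, was not tested for Lrp1. Slc7a5, the amino acid carrier that takes gabapentin across the blood-brain barrier, measured 57.1 to 63.6 CPM after saline and 63.5 to 67.3 CPM after collagenase and did not pass (edgeR adjusted p 0.674); it was named after its values were seen.

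**Figure D5:**
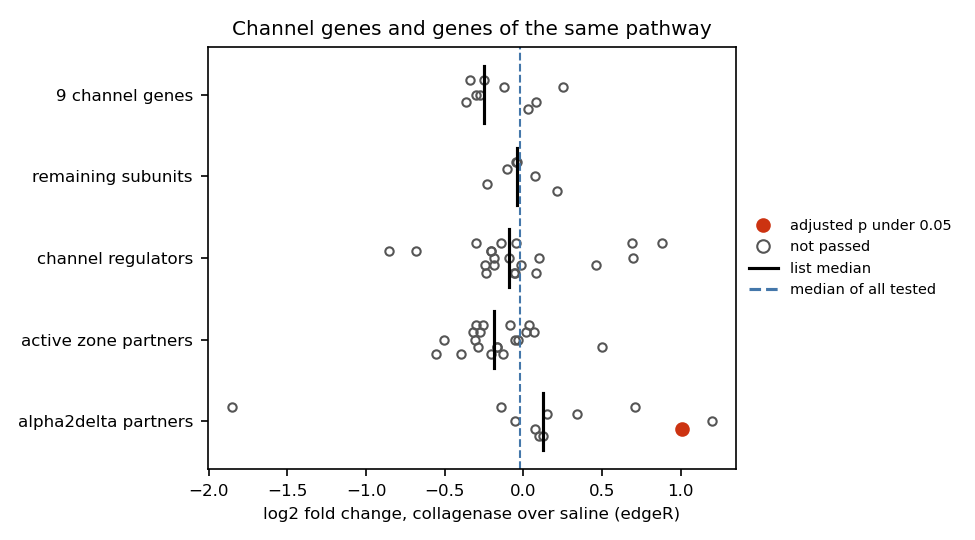
Log2 fold change, collagenase over saline, of the 9 channel genes and of the tested genes of 4 pathway lists, from edgeR. Each circle is a gene, filled red where the adjusted p was under 0.05, the black line is the list's median and the dashed line the median of all tested features (-0.02). Only Thbs2, among the alpha2delta partners, is filled.

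The genes whose levels followed the alpha2delta genes most closely over the 6 libraries were found by Pearson correlation of log2 CPM among 10113 genes, as a description in libraries that share 1 grouping. For Cacna2d1 they were Ccnc, Gria3 and Hsph1, each with r = 0.99. Gria3, an AMPA receptor subunit, passed the edgeR test (log2 fold change -0.52, adjusted p 0.0395), and the other two did not (edgeR adjusted p 0.188 and 0.179). For Cacna2d2 they were Smg6, Tpp1 and Bag3 (each r = 0.99), all low in saline replicates 1 and 2 and highest in saline replicate 3. For Cacna2d3 they were Nalcn, Slc25a35 and Stk4 (r = 0.99, 0.98 and 0.98). None of the 6 genes for Cacna2d2 and Cacna2d3 passed (edgeR adjusted p 0.634 to 0.866). Among the 9 channel genes themselves the closest pairs were Cacna1a with Cacna1c and Cacna2d1 with Cacnb4 (both r = 0.89), and Cacna1b with Cacna1e was the most opposed (r = -0.64).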

How the data were processed

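The authors deposited 1 table per library, in which every feature has its unnormalised read count and its FPKM, per the file headers. Tools in the submitters' processing notes are FastQC, HISAT2 2.2.1, StringTie and DESeq2, with GRCm38 as the build and no roles. Which annotation release, strand setting and multi-mapping rule were used is not given in the sources used here. Of 26554 features, 22036 have an Ensembl identifier and 4518 are new loci; 22022 identifiers matched a symbol. Between 10 and 30 lines of spilled annotation text per file were skipped.

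The test on counts was run in R 4.3.3 with edgeR 4.0.16: filterByExpr, TMM factors (0.898 to 1.063), robust quasi-likelihood F-test, two-sided, Benjamini-Hochberg adjustment over 17240 features, threshold 0.05. The steps were tested on simulated data. Alternatives were DESeq2 1.42.0, limma 3.58.1 on log2 FPKM with a pseudocount of 1 or 0.1, other scalings and filters, a replicate block, and leaving out each library. Shares used deposited FPKM and exact permutation tests. The members and lists were chosen with earlier results of these data known. Named genes are the 9 members, pathway genes that passed, the 3 others with the smallest p in each list, and the 3 genes most correlated with each of Cacna2d1, Cacna2d2 and Cacna2d3 (mean of at least 10 CPM, no predicted names). Slc7a5, the overlapping gene Chdh and single genes of the marker lists were named outside this rule. Positions and transcript sequences are from GENCODE M21 (GRCm38).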

Additional observations from a re-analysis of the deposited data

How the results depend on the processing

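The count of channel genes that passed was 0 in 12 of 14 alternative fits. It was 1 with DESeq2 (Cacna2d1) and 1 without saline replicate 3 (Cacna2d2), so it ranged from 0 to 1 with a library left out. The count of pathway genes was 1 as designed, 5 with DESeq2, 0 with limma on log2(FPKM + 1), 2 with no filter on low counts, and 0 to 3 with a library left out. Over all features the count was 416 as designed, 788 with DESeq2 and 85 to 917 with a library left out; these were 366 higher and 50 lower as designed, 608 and 180 with DESeq2, and 503 and 414 (54.9% higher) without saline replicate 3. Channel genes whose groups do not overlap numbered 2 as designed (Cacna2d1 and Cacnb4, both lower), where 17.6% of all tested features did not overlap. With FPKM or with library size alone only Cacna2d1 remained. Relative to the pan-neuronal markers it was 1 other gene, Cacna2d2, higher after collagenase. That scaling was chosen after seeing the data, and 25.2% of all tested features did not overlap on it. With the replicate number as a block, 302 features, 0 channel genes and 1 pathway gene (Thbs2) passed. Same-numbered libraries had deviations that correlated by 0.05, 0.13 and 0.20. Saline replicates 2 and 3 correlated best with their own number, and saline replicate 1 with collagenase replicate 2 (0.06). These values do not settle whether the numbers pair libraries, and the main fit used no pairing.

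Signs turned only for values that no fit called. With limma on log2(FPKM + 0.1) and log2(FPKM + 1), the log2 fold change of Cacna1b was 0.04 (0.0405 and 0.0366), that of Cacnb2 0.0234 and 0.0221, and that of Cacna2d4 0.0252 and 0.0184. With 1 library left out, the log2 fold change ran from -0.402 to 0.0125 for Cacna1a, from -0.133 to 0.145 for Cacna1e, from -0.0660 to 0.445 for Cacnb3 and from -0.240 to 0.0388 for Cacna2d4; the high ends for Cacna1a, Cacnb3 and Cacna2d4 were without saline replicate 3. The difference in family share ran from -4.12 to 0.602 percentage points for Cacna1a, from -0.810 to 1.91 for Cacna1b and from -3.99 to 0.152 for Cacna2d3. The causes were not tested.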
